A study of Mus musculus with 2 samples.

Results

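Erythroblastic islands are the bone marrow niches in which a central macrophage is surrounded by maturing erythroblasts, which are red cell precursors that still hold a nucleus. The 10 genes described here encode proteins by which such macrophages, and tissue macrophages in general, are recognised. They are Vcam1, Siglec1, Adgre1 (named Emr1 in older annotations), Cd163, Mrc1, C1qa, C1qb, C1qc, Spic and Csf1r. They were chosen by gene symbol, and all 10 were found among 43346 Ensembl genes, of which 21461 were nuclear protein-coding genes. The libraries were made from erythroblasts and not from macrophages, and the values do not show which cells the transcripts came from.

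The study has 1 group, primary erythroblasts of adult male C57BL/6J mice aged 5 to 6 weeks, with 2 biological replicates and no treatment, mutant or comparison group. RNA depleted of ribosomal RNA was sequenced as total RNA from 100 ng of input with a ScriptSeq kit. The replicates share 1 donor record in the labels, and some of their spread may therefore be technical. The labels also give them different size ranges, 138 to 1000 for replicate 2 and 200 to 764 for replicate 1, without a unit. This difference cannot be told apart from the replicate in any ratio or transcript share below. Replicate 2 held 22464724 expected counts, which are estimated read counts per gene, and replicate 1 held 37312624.

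The island macrophage holds erythroblasts through adhesion proteins, supplies them with iron and engulfs the nuclei that they expel at the end of maturation. Several of its proteins are shared with the red pulp macrophages of the spleen and Kupffer cells of the liver, which take up aged red cells and recycle their iron. Survival of most tissue macrophages depends on signalling through the receptor encoded by Csf1r.

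Levels are given as coding-scaled TPM, that is, the deposited TPM multiplied by 1 factor per library that brings the sum over its nuclear protein-coding genes to 1000000. This scale corrects for transcript length and leaves out small RNAs, since coding genes held 6.89% of the deposited TPM in replicate 2 and 11.3% in replicate 1. A gene counted as detected at a coding-scaled TPM of at least 1 in both libraries. All 10 macrophage genes were detected, against 43.9% of all nuclear protein-coding genes. With the limit of 1 set on deposited TPM instead, 7 of 10 passed, and Siglec1, Spic and Csf1r did not. Their median level was 21.7 in replicate 2 and 19.7 in replicate 1, a mean of 20.7 ± 1.38 (SD, n = 2). Together they took 5014 counts in replicate 2, which was 0.0426% of the coding counts (exact 95% binomial interval 0.0414 to 0.0438%). In replicate 1 they took 10163 counts or 0.0472% (0.0463 to 0.0481%). The intervals cover counting error only and not variation between replicates. The reads carried no molecular identifiers, so repeated copies of 1 molecule cannot be told apart and the intervals may be too narrow. In bulk RNA, fewer cells of a type and less RNA per cell cannot be told apart.

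**Figure D1:**
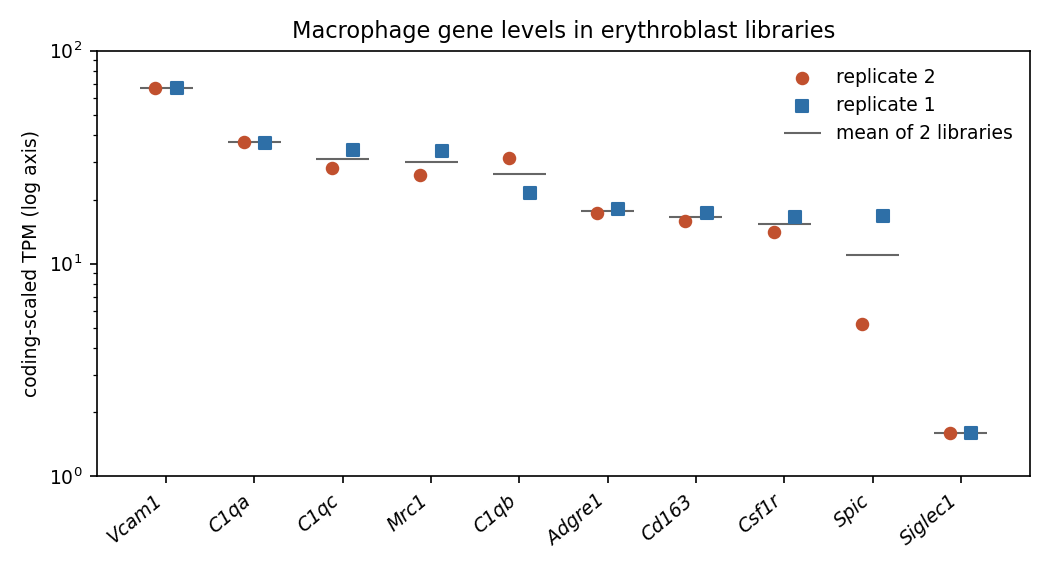
Level of each macrophage gene in coding-scaled TPM (log axis), with a circle for replicate 2, a square for replicate 1 and a line for their mean. The means run downward from 66.9 for Vcam1 to 1.60 for Siglec1, and the libraries lie farthest apart at Spic.

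Among the adhesion genes, Vcam1 was the highest of the 10 and Siglec1 the lowest. Vcam1 encodes the cell adhesion molecule that binds the integrin formed by Itga4 and Itgb1 on erythroblasts. It lies on chromosome 3 at 116109949 to 116129688, minus strand (GRCm38, as are all positions below). Its level was 66.7 coding-scaled TPM in replicate 2 and 67.2 in replicate 1, from 1680 and 3276 counts. The mean of 66.9 ± 0.324 (SD, n = 2) stood at percentile 88.9 of 12895 coding genes with a TPM above 0 in either library. Siglec1 (chromosome 2, 131069220 to 131086765, minus strand) encodes CD169, a lectin that binds sialic acids on other cells. It had 1.60 coding-scaled TPM in each library, from 79 counts in replicate 2 and 144 in replicate 1, at percentile 25.4. Its deposited TPM, 0.11 and 0.18, has 2 decimals, so the likeness of the libraries is known only roughly. Adgre1 (chromosome 17, 57358691 to 57483527, plus strand) encodes F4/80, the antigen most used to mark mouse macrophages and also present on eosinophils. It had 17.3 coding-scaled TPM in replicate 2 and 18.0 in replicate 1, from 408 and 839 counts. For these 3 genes the libraries lay close together, with the largest SD, 0.550, at Adgre1.

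The scavenger receptor genes stood in the middle of the range. Cd163 (chromosome 6, 124304656 to 124330527, plus strand) encodes the receptor for haemoglobin bound to haptoglobin. Its level was 15.8 coding-scaled TPM in replicate 2 and 17.2 in replicate 1, a mean of 16.5 ± 1.01 (SD, n = 2), from 521 and 1103 counts. Mrc1 (chromosome 2, 14229392 to 14332057, plus strand) encodes the mannose receptor CD206, which is also carried by some endothelial cells. It had 26.1 coding-scaled TPM in replicate 2 and 33.8 in replicate 1, from 1057 and 2071 counts. By coding-scaled TPM replicate 2 was the lower library for both receptors, but for Mrc1 the gap depended on the scale. The log2 ratio of replicate 2 over replicate 1 for Mrc1 was -0.37 by coding-scaled TPM. From scaled counts it was -0.08 (exact interval -0.19 to 0.03). The length given for Mrc1, for which coding-scaled TPM corrects, was 5374 bases in replicate 2 and 4228 in replicate 1.

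Spic and Csf1r are the regulators of the set. Spic (chromosome 10, 88674772 to 88685015, minus strand) encodes an Ets-family transcription factor that is required in mice for red pulp macrophages. It had 5.22 coding-scaled TPM in replicate 2 and 16.8 in replicate 1, from 63 and 298 counts. The mean of 11.0 ± 8.18 (SD, n = 2) therefore describes neither library well. Csf1r encodes the receptor for the growth factors CSF1 and IL-34 and lies on chromosome 18. It had 14.1 coding-scaled TPM in replicate 2 and 16.6 in replicate 1, from 494 and 1137 counts.

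The 3 C1q genes encode the A, B and C chains of C1q, the recognition protein of the classical complement pathway, which is assembled from equal numbers of the 3 chains and made largely by macrophages. They are neighbours on the minus strand of chromosome 4. C1qb runs at 136880129 to 136886187, C1qc at 136889804 to 136893065 and C1qa at 136895917 to 136898803. The gaps between them are 3616 and 2851 bases. C1qa had 37.4 coding-scaled TPM in replicate 2 and 36.8 in replicate 1, from 258 and 475 counts. C1qc had 28.0 in replicate 2 and 34.3 in replicate 1, from 228 and 528 counts. C1qb had 31.2 in replicate 2 and 21.4 in replicate 1, from 226 and 292 counts. On this length-corrected scale C1qa was the highest of the 3 in both libraries, with C1qb above C1qc in replicate 2 and below it in replicate 1. By counts C1qc was at or above C1qb in both libraries and was the highest of the 3 in replicate 1.

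As a share of the summed C1q counts, C1qa held 36.2% in replicate 2 (exact 95% interval 32.7 to 39.9%) and 36.7% in replicate 1 (34.0 to 39.4%). C1qb held 31.7% in replicate 2 (28.3 to 35.3%) and 22.5% in replicate 1 (20.3 to 24.9%), intervals that do not overlap. C1qc held 32.0% in replicate 2 (28.6 to 35.6%) and 40.8% in replicate 1 (38.1 to 43.5%), again without overlap. By coding-scaled TPM the mean shares were 39.3 ± 0.729% for C1qa, 27.7 ± 6.46% for C1qb and 33.0 ± 5.73% for C1qc (SD, n = 2). The ratio of C1qc to C1qb was 0.898 in replicate 2 and 1.60 in replicate 1. C1qa was thus the chain with the steadiest share.

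**Figure D2:**
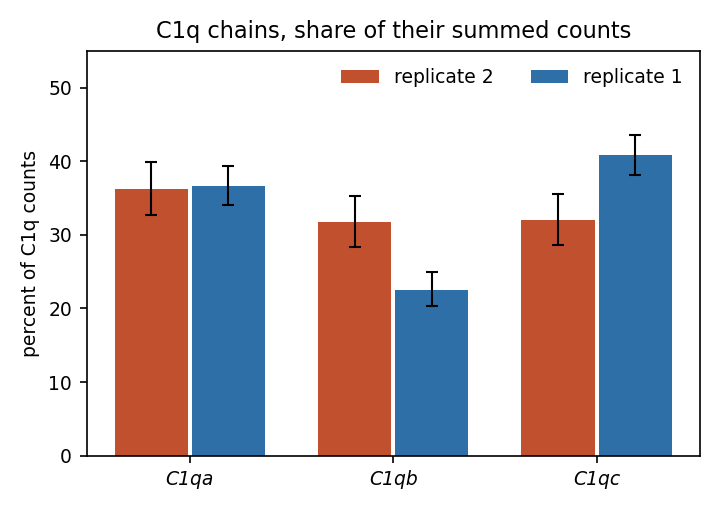
Share of the summed C1q counts held by each chain (percent), with replicate 2 left of replicate 1 and bars for the exact 95% interval, which covers counting error only. C1qa stands at 36.2% and 36.7%, while C1qb and C1qc differ between the libraries beyond those intervals.

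The upstream sequences of C1qb and C1qc are shown because these genes lie in 1 cluster and had count ratios between the libraries on opposite sides of 0. These are reference sequences and not sequences of the libraries, and a link to those ratios was not tested. They are taken from the RefSeq promoter windows on build GRCm38.p6 (250 bases before to 50 after each gene's start), cut to the bases upstream of both the RefSeq and the GENCODE start. Capitals mark GAGGAA read on either strand, so that a copy on the opposite strand appears as TTCCTC. This is the form of the Ets core bound by the products of Spi1 and Spic.
C1qb, chr4:136886201-136886450, minus strand: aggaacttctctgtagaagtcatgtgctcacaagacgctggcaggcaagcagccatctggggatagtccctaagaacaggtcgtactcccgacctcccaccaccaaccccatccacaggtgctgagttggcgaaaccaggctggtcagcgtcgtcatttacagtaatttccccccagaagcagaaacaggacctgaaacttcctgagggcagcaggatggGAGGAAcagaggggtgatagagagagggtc
C1qc, chr4:136893066-136893164, minus strand: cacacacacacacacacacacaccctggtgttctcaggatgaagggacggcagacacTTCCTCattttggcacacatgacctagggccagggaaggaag
A RefSeq window was found for 5 of the 10 genes, and 3 of those 5 held the core, namely Mrc1, C1qb and C1qc. Over 32851 windows of 300 bases, 28.3% held it at least once. The Mrc1 window held 3 copies, all on the opposite strand, which 0.685% of windows equal or exceed. The letters TGCTGA were searched as well and were found in 2 of the 5 windows, C1qb and Spic, against 19.5% of all windows. A match of either set of letters is a description and not a site.

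Ordered by mean level, the genes ran Vcam1, C1qa, C1qc, Mrc1, C1qb, Adgre1, Cd163, Csf1r, Spic and Siglec1. The ranges of the 2 libraries overlapped between C1qc and Mrc1, Mrc1 and C1qb, Cd163 and Csf1r, and Csf1r and Spic. Within each library, however, C1qc stood above Mrc1 and Cd163 above Csf1r. The order of Mrc1 and C1qb, and that of Csf1r and Spic, differed between the libraries. The step from Vcam1 to C1qa was 1.80-fold and the step from Spic to Siglec1 was 6.89-fold, without overlap.

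The libraries were then compared gene by gene as the log2 ratio of replicate 2 over replicate 1, from counts scaled by TMM factors. Each side is 1 library, so no test was made and no p-value is given. Of the 10 macrophage genes 1, Spic, was at least 2-fold apart. The same held for 21.9% of 11181 coding genes that averaged 10 counts or more, and for 8.93% of the 6431 coding genes with a mean count inside the range of the 10 genes (111.5 to 2478). Genes at least 2-fold lower in replicate 2 made up 5.75% of those 6431. The ratio was below 0 for 7 of the 10 genes, against 53.8% of the 6431. The median ratio was -0.11 for the 10 genes and -0.05 for the 6431, whose middle 90% ran from -1.05 to 0.83. Of the 10 genes 9 lay inside that range and Spic lay below it.

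Single genes differed in how far counting error alone covered their ratio. Spic had a log2 ratio of -1.35 (exact 95% interval -1.76 to -0.95), and 2.61% of the 6431 genes lay at or below it. The upper end of that interval is less than 2-fold. C1qb had 0.52 (0.27 to 0.78), with 87.8% of the 6431 genes at or below it. C1qc had -0.32 (-0.55 to -0.09), Csf1r -0.31 (-0.46 to -0.16) and Cd163 -0.19 (-0.34 to -0.04). The intervals of the remaining 5 held 0, with ratios of -0.15 for Adgre1, -0.08 for Mrc1, -0.07 for Vcam1, 0.01 for C1qa and 0.03 for Siglec1. With library size alone as the scaling, which moves the median of all coding genes to -0.20 from -0.04, Siglec1 and C1qa turned below 0, so that 9 of the 10 lay there. From coding-scaled TPM, Siglec1 alone turned, to -0.0036, and 8 of the 10 lay below 0. That value rests on deposited TPM of 0.11 in replicate 2 and 0.18 in replicate 1, given to 2 decimals. Its sign is therefore within rounding. C1qb was the only 1 of the 10 with an interval above 0.

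**Figure D3:**
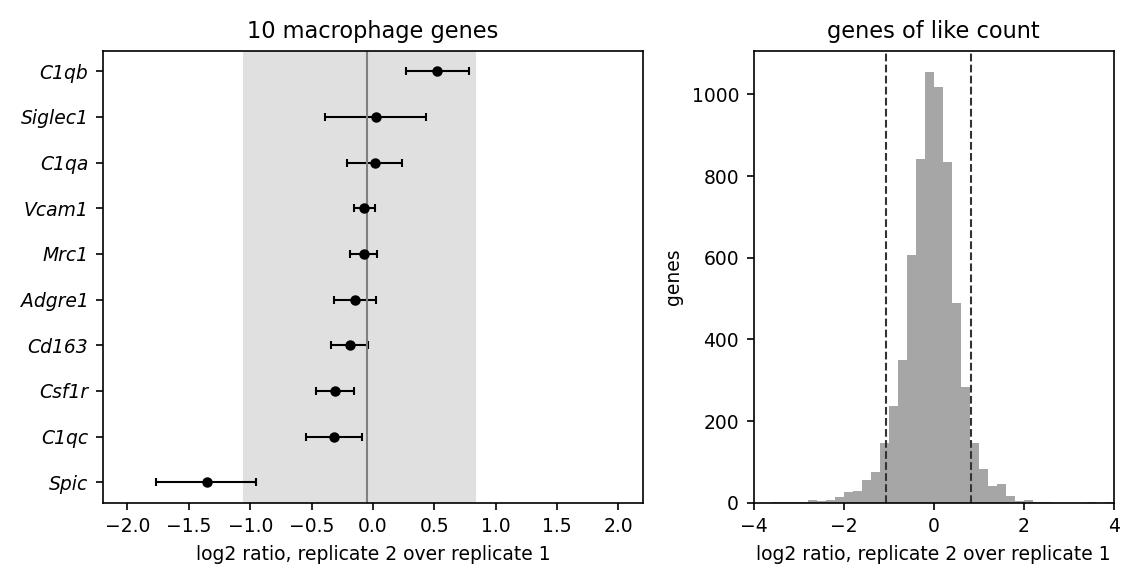
Left, log2 ratio of replicate 2 over replicate 1 for each macrophage gene with its exact 95% interval; the grey band is the middle 90% and the grey line the median of 6431 coding genes of like count. Right, the number of those genes per ratio (dashed lines, -1.05 and 0.83), where 3 genes beyond the axis or with 0 counts in 1 library are not drawn.

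Transcript estimates added a second difference at Spic. In replicate 2 the protein-coding transcript Spic-201 held 67.31% of the gene's TPM and Spic-202, which GENCODE classes as nonsense-mediated decay, held 25.82%. In replicate 1 Spic-202 held 100% and Spic-201 held 0%. These shares rest on 44.3 counts for Spic-201 and 12.7 for Spic-202 in replicate 2, and on 0 and 298 counts in replicate 1. By the posterior mean, an estimate that averages over the ways of assigning reads, Spic-202 led in both libraries, with 47.57% in replicate 2 and 96.17% in replicate 1. The leading transcript of replicate 2 therefore depends on the estimate. By coding-scaled TPM, which corrects for a length weighted by the first shares above, the log2 ratio of Spic was -1.69. The deposited TPM of Spic in replicate 2 was 0.36, near the low end of its deposited interval of 0.319 to 0.586. The ratio of -1.69 therefore depends on the estimate as well.

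The junction that separates the transcripts is shown with the last 30 bases of exon 5 in lower case and the next 20 bases of the mature transcript in capitals, from the GENCODE M21 transcripts.
Spic-202: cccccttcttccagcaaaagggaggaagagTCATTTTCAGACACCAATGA
Spic-201: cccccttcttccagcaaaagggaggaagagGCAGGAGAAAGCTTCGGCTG
Spic-202 includes an exon of 93 bases (chromosome 10, 88676873 to 88676965) that Spic-201 skips. Its reading frame meets a TGA within 20 bases, at the end of the stretch shown, so that Spic-202 has 113 codons before the stop and Spic-201 has 242. Spic-201 also reaches 500 bases farther at its 3′ end.

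Of the 10 genes 7 have more than 1 listed transcript. The largest share shift between libraries reached 30 percentage points for 3 of these 7, against 43.3% of 4805 multi-transcript coding genes of like count. The leading transcript differed between libraries for 1 of 7, Spic, against 38.3% of the 4805. At Adgre1, Adgre1-202 held 55.23% in replicate 2 and 100% in replicate 1, with Adgre1-201 holding the rest. Both encode the same 931 codons in GENCODE M21, although the deposited length of Adgre1-202 differs from M21. At Mrc1, the protein-coding Mrc1-201 held 100% in replicate 2 and 65.34% in replicate 1. The remaining 34.66% of replicate 1 went to Mrc1-202, a retained-intron transcript with 997 bases that Mrc1-201 lacks. Siglec1-201 held 100% in replicate 2 and 78.91% in replicate 1, with Siglec1-203 at 0% and 21.09%. Csf1r-202 held 100% and 98.13%, and Cd163-201 and C1qc-201 held 100% in both libraries. Vcam1, C1qa and C1qb have 1 transcript each. Transcripts not classed as protein-coding took 0.656% of the 10 genes' TPM in replicate 2 and 10.8% in replicate 1. Coding genes of like count gave 20.5% and 18.7%. Of the 10 genes only Mrc1, Spic and C1qc list such a transcript, so the share of the others was fixed by annotation. The comparison therefore says little about the 10 genes.

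**Figure D4:**
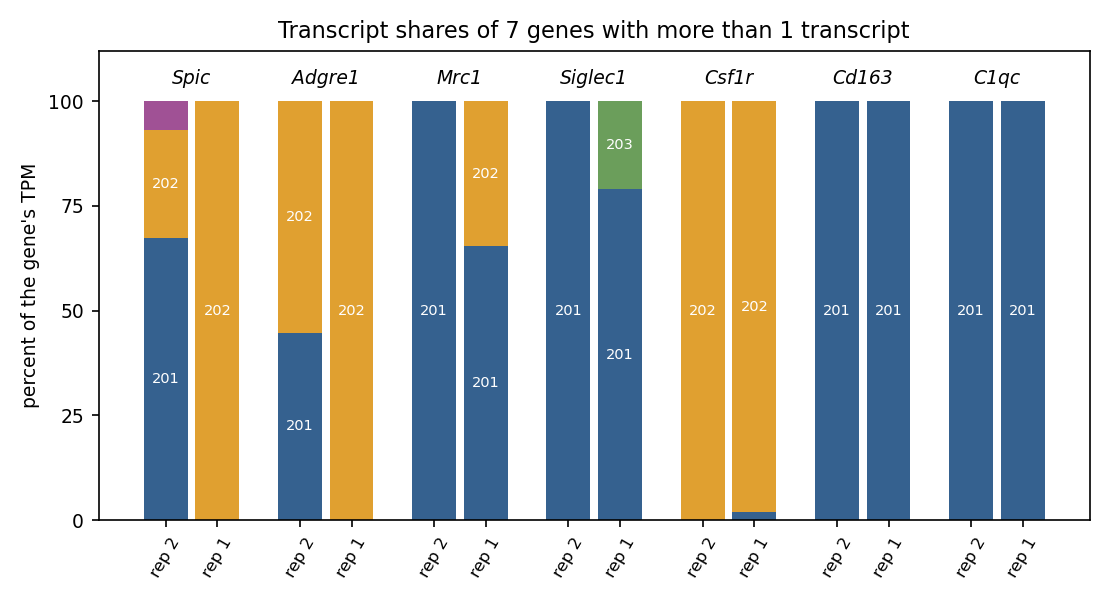
Percent of each gene's TPM held by each transcript, with replicate 2 left of replicate 1; numbers in the bars are the transcript's suffix (201 for Spic-201). Spic is mostly 201 in replicate 2 and 202 alone in replicate 1, and Csf1r, Cd163 and C1qc keep 1 leading transcript at 98.13% or more.

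Genes of neighbouring pathways were measured in the same libraries, as counts of genes detected and list medians. Iron-recycling macrophages were represented by 12 genes, and 9 passed the detection limit. Their median level over all 12 was 10.2 coding-scaled TPM in replicate 2 and 7.20 in replicate 1. Slc40a1, the iron exporter ferroportin, was highest at 124 ± 25.7, followed by the heme oxygenase gene Hmox1 at 64.5 ± 2.57 and the transferrin gene Trf at 55.3 ± 2.81 (SD, n = 2). Slc40a1 and Hmox1 are also expressed by erythroid cells. Clec4f, a marker of Kupffer cells, had 0 counts in both libraries, which allows up to 0.134 CPM (counts relative to the library total) in replicate 2 and 0.0804 in replicate 1.

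Of 12 genes for the engulfment and digestion of nuclei 9 were detected. The protease genes Ctsb (433 ± 2.61) and Ctsd (289 ± 13.2) were highest, and Dnase2a, the lysosomal nuclease that digests the DNA of engulfed nuclei, stood at 96.7 ± 10.2. Tyro3, a receptor tyrosine kinase, had 1 count in replicate 2 and 0 in replicate 1. Around the CSF1 receptor 10 of 12 genes were detected, led by the adaptor gene Tyrobp at 134 ± 7.85, Bach1, a heme-sensing repressor, at 60.7 ± 1.12 and Spi1, which encodes PU.1, at 36.7 ± 19.9. Id3 was lowest at 0.145 ± 0.205. Slc40a1, Ctsb, Ctsd, Dnase2a and Tyrobp were thus each higher than Vcam1, the highest of the 10 macrophage genes.

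On the erythroblast side of the contacts all 8 genes were detected. Cd47, whose product restrains engulfment by macrophages, stood at 732 ± 45.1, Itga4, the integrin partner of Vcam1, at 359 ± 65.0 and the erythropoietin receptor gene Epor at 76.1 ± 17.4. Itgav was lowest at 4.65 ± 1.42.

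Markers of other cells that share these genes were read in the same way. All 8 erythroblast genes were detected, and their median level was 3805 in replicate 2 and 3226 in replicate 1, so erythroblast markers were present at high levels, as labelled. All 10 neutrophil genes were detected too, with medians of 652 and 832 and with S100a8 highest at 8070 ± 918. The summed level of the 10 macrophage genes, 243 in replicate 2 and 264 in replicate 1, was 0.0803% and 0.0776% of the summed erythroblast genes. It was 1.23% and 1.30% of the summed neutrophil genes.

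Of 14 genes common to mononuclear phagocytes 13 were detected, led by Lyz2, the lysozyme gene also used by neutrophils, at 2068 ± 272, Apoe at 234 ± 2.93 and Ctss at 150 ± 0.749. The summed level of these 14 was 2621 in replicate 2 and 3080 in replicate 1. All 8 monocyte genes were detected, with sums of 502 and 764, Ly6c2 at 287 ± 162 and the chemokine receptor gene Ccr2 at 77.9 ± 12.3. Of 7 eosinophil genes 6 were detected, with sums of 739 and 786 and Prg2, the major basic protein gene, at 490 ± 56.5. Eosinophils carry Adgre1, and monocytes carry Csf1r. The part of these cells in the levels of the macrophage genes was not tested.

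Of 8 endothelial genes 3 were detected, with sums of 35.7 in replicate 2 and 29.9 in replicate 1. Vwf was highest at 25.2 ± 4.52, a gene that megakaryocytes also express. Pecam1, which leukocytes and platelets also carry, had 99 counts in replicate 2 and 197 in replicate 1, and Stab2, a receptor of sinusoidal endothelium, had 43 and 124. Lyve1, another sinusoidal and lymphatic marker, had 7 and 47 counts and was under the detection limit. Cdh5, Kdr and Tek, which are general endothelial markers, had 0 counts in both libraries. The part of endothelial cells in the levels of Vcam1 and Mrc1 was not tested. Of 8 stromal genes 2 were detected, Cxcl12 at 8.12 ± 0.825 and Lepr at 4.87 ± 5.01, with sums of 17.8 and 13.9. Both lists summed to less than the level of Vcam1 alone, which does not show how much of the Vcam1 level such cells gave. The part of stromal cells in the level of Vcam1 was not tested either. Of 8 dendritic cell genes 5 were detected, led by Zbtb46 at 6.14 ± 0.484, and Siglech had 0 counts. Of 5 B cell genes 1 was detected, Jchain at 39.1 ± 1.12, and of 6 T and NK cell genes 3 were detected, led by Nkg7 at 20.3 ± 5.89. Pax5 and Cd8a had 0 counts in both libraries.

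**Figure D5:**
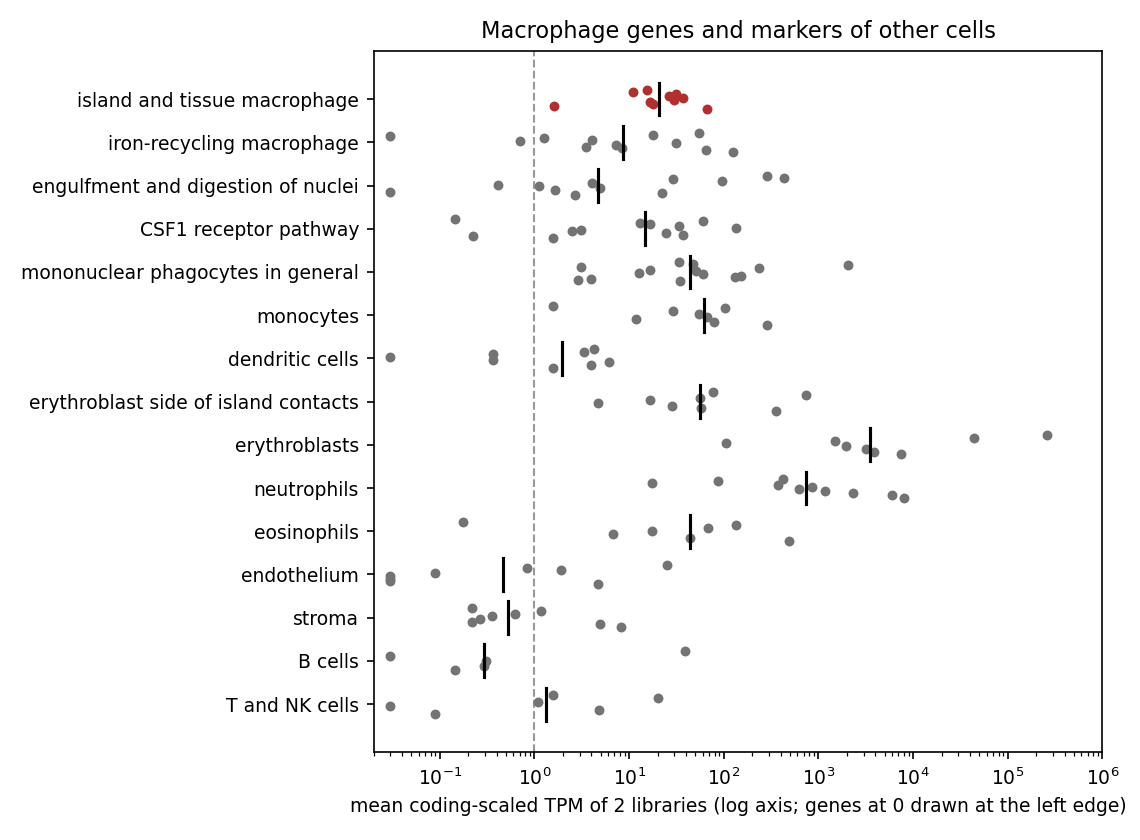
Mean coding-scaled TPM of the 2 libraries (log axis) for each gene of 15 lists, with the 10 macrophage genes in red, a black bar for each list's median and a dashed line at the detection limit of 1. The macrophage genes have a median of 20.7, and the endothelial, stromal and B cell lists have medians below 1.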

How the data were processed

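Each library had a deposited gene table and a deposited transcript table. The authors gave expected counts with their posterior mean and standard deviation, and TPM over all listed features, per the file headers. The deposited transcript tables add IsoPct, a transcript's percent within its gene's TPM. The assembly is mm10 per the labels, with GENCODE M4 named in deposited records, and for the aligner and quantifier: not given in the sources used here. Gene symbols, classes and positions came from GENCODE M21, which matched 42462 of 43346 Ensembl genes (98.0%).

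Counts were rounded and scaled with TMM factors (edgeR 4.0.16, R 4.3.3) over 12750 genes. As an alternative, size factors came from DESeq2 1.42.0. Counts outside Ensembl genes (28 in replicate 2, 8 in replicate 1) were left out. Exact Clopper-Pearson intervals used Python 3.11.15 with scipy 1.17.1, and ratios were checked on simulated counts. The simulated counts held counting error only, so the check covers the calculation and not the spread between real replicates. Chi-square over degrees of freedom was 312 between the libraries, which are therefore not copies. The posterior standard deviation of the count was 0 for all 10 genes in both libraries.

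The 10 genes and the lists were chosen with earlier results of these data known. All 10 genes are named, and of each other list, genes named are among its 3 highest, its lowest or those with 0 counts. Chosen outside this rule, with values seen, were Itgb1, Lyve1, Nr1h3, Gas6, Stab1, Timd4 and Cd14. Lists overlap in Timd4, and 1 listed B cell symbol was not matched. The genome sequence and other tracks were not used here.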

Additional observations from a re-analysis of the deposited data

How the results depend on the processing

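No paired analysis was possible because there is 1 group. The median level of the 10 genes was 1.86 as deposited TPM, against 20.7 on the coding-scaled scale, since coding genes hold a small part of deposited TPM, and it was 20.5 with posterior mean TPM. Leaving out 1 library gave 19.7 to 21.7. Detection counted 7 genes by deposited TPM of at least 1 and 8 at a coding-scaled TPM of at least 10. The other lists held 125 different genes, with 94 detected by coding-scaled TPM and 65 by deposited TPM. By counts the mean C1qa share was 36.5%, against 39.3% by TPM. The median leading transcript share was 100%, and 96.1% with posterior mean TPM. The median log2 ratio was -0.11 with TMM factors or DESeq2 size factors, -0.27 with library size alone and -0.09 from coding-scaled TPM. Without Spic, an alternative chosen after seeing the data, it was -0.08. Under each scaling and count filter run, 1 gene was at least 2-fold apart, and 40 of 40 alternative ratios of single genes moved by less than 0.605, the SD over genes of like count. That limit is wider than the ratio of every gene but Spic, so a change of sign, as at Siglec1 and C1qa, stayed within it. The 40 include posterior mean counts, which gave the same ratios as the main counts. This count therefore says little about how firm the ratios are. Depth limits Siglec1 and Spic most, with 79 and 63 counts in replicate 2.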

Other observations

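Some other genes of the macrophage lists also differed between the libraries. They were chosen after their values were seen and are given as counts only. These counts are not scaled for depth, and replicate 1 held more counts in total. Among all coding genes that averaged 10 counts or more, 21.9% were at least 2-fold apart after scaling. Nr1h3, which encodes the liver X receptor alpha, had 82 counts in replicate 2 and 8 in replicate 1. Gas6, a bridging ligand for engulfment, had 59 and 3, and the scavenger receptor gene Stab1 had 37 and 2. In the other direction, Cd14 had 0 counts in replicate 2 and 121 in replicate 1, and Timd4, a receptor for phosphatidylserine, had 36 and 178. Spic, with 63 and 298, lay on the same side as Timd4. The cause was not tested.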
